A study of Oryza sativa with 216 samples.

Results

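The set described here is the co-expression module of LOC_Os01g11054, a rice gene annotated as a phosphoenolpyruvate (PEP) carboxylase. It holds 150 of the 57258 probe sets that were measured besides the control ones. The members were chosen by measured values: probe sets with a median of at least 6 on the log2 scale over 210 recombinant inbred lines (RILs) were eligible, which gave 21792 probe sets. Each was correlated over the RILs with 3 seed genes, namely LOC_Os01g11054, a vesicle-associated membrane protein gene (VAMP, LOC4340278) and TOC75, an outer-membrane protein gene of the OMP85 family. Of the 8765 eligible probe sets whose highest r was with LOC_Os01g11054, the 150 with the highest r were taken. The seed's own probe set is 1 of these, and the rest are called the other members below.

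PEP carboxylase adds bicarbonate to PEP and so makes oxaloacetate. In leaves that fix carbon directly through Rubisco, as rice leaves do, the enzyme is known for refilling the organic acids that are drawn off when ammonium is built into amino acids. PEP itself comes from glycolysis, or reaches the chloroplast from the cytosol, where it feeds the shikimate pathway to aromatic compounds. A co-expression module is a set of genes whose transcripts go up and down together across genotypes, and membership says nothing about which gene acts on which.

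RNA came from flag leaves at the heading stage, hybridized to single-colour Affymetrix rice arrays. The 210 RILs were derived by crossing the indica lines Minghui 63 and Zhenshan 97, with 1 array for each line and RNA of 2 plantings mixed, and lines were not replicated. The parents Minghui 63 and Zhenshan 97 had 3 arrays each, and no group carried a treatment. All values are log2 expression values, on which a difference of 1 is a doubling. Array medians lay between 5.15 and 5.32 in the RILs, 5.2 and 5.25 in Minghui 63 and 5.15 and 5.24 in Zhenshan 97. The 4 probe sets listed as mesophyll markers, all for chlorophyll-binding proteins, had RIL medians of 12.80 to 14.05. The 7 probe sets for the seed storage proteins glutelin and prolamin had RIL medians of 2.29 to 5.04. Their highest values in any line ran from 4.09 to 10.13. The 5 probe sets listed as pollen and anther proteins had RIL medians of 6.56 to 9.36, and 0 probe sets were found for root proteins.

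LOC_Os01g11054 lies on chromosome 1 and was read from the probe set that the rule names. Its expression over the 210 RILs ran from a lowest value of 9.21 through a median of 10.09 to a highest value of 10.73, a 2.87-fold range (SD 0.29). The Minghui 63 arrays gave 10.15, 9.66 and 10.03, against 9.88, 9.82 and 10.23 in the Zhenshan 97 arrays. The parents overlapped throughout, with a difference of -0.04 ± 0.19 (SE, limma adjusted p = 0.964; exact two-sided permutation p = 0.9, where 3 against 3 arrays cannot go below 0.1). Of the lines, 12 lay below the lowest parental array, 61% within the parental range and 70 above it. The other probe set of the same gene had a RIL median of 3.19, under the limit of the rule, and an r of 0.19 with the seed. A different PEP carboxylase gene, LOC_Os01g02050, had a RIL median of 5.89 and was not eligible.

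The other members correlated with LOC_Os01g11054 at r from 0.61 to 0.82, with a median of 0.65, against a median of 0.01 over all eligible probe sets. These values chose the members and are given as a description. The highest values were 0.82 and 0.80, for 2 probe sets of LOC_Os07g11110, a NAD-dependent epimerase/dehydratase family protein. Another eligible probe set of this gene, with a RIL median of 11.90, had r = 0.44 and is not a member. Just inside the limit stood PDX12, an enzyme of pyridoxal phosphate synthesis, at 0.6125 and a probe set with no name at 0.6117. Just outside stood another unnamed probe set at 0.6115 and a probe set of GLO5 at 0.6113, so the boundary does not separate different kinds of probe set. Spearman's rho with the seed had a median of 0.62 and a lowest value of 0.54. Members also correlated with one another: the median r over their 11026 pairs was 0.66, the lowest was 0.16 and 0 pairs were negative. For 91.3% of the other members, r with the mean of the other members was higher than r with LOC_Os01g11054 itself.

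**Figure D1:**
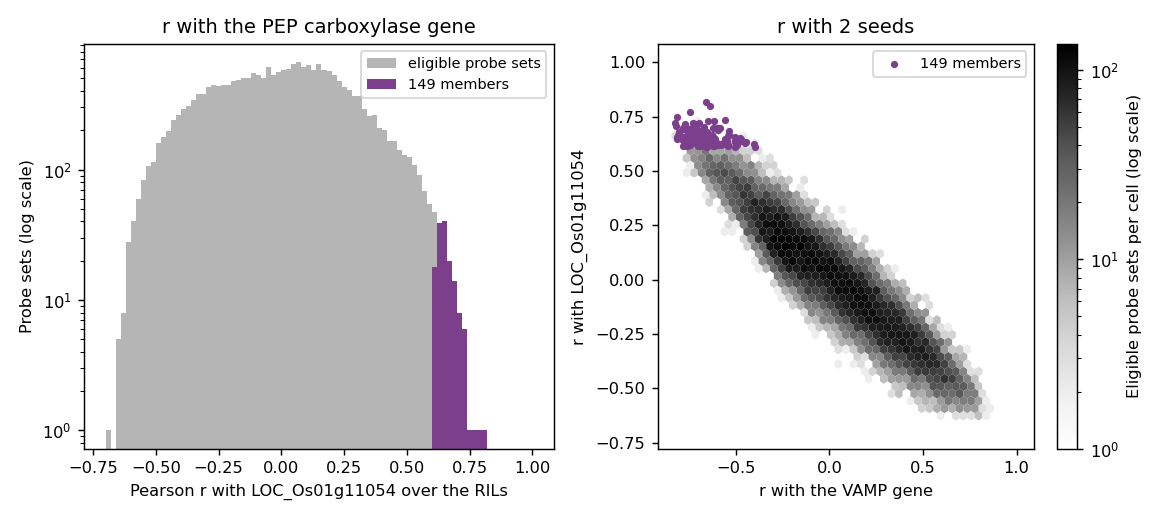
Left, number of probe sets (log scale) by Pearson r with LOC_Os01g11054 over the 210 RILs, with all eligible probe sets in grey and the other members in purple. Right, r with LOC_Os01g11054 against r with the VAMP gene, where grey cells count eligible probe sets; the members lie at the upper left end of a single band, with r of -0.40 or lower with the VAMP gene.

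The members were also tied to the VAMP gene, in the opposite direction. Their r with it had a median of -0.68 and a highest value of -0.40, and 94.6% were below -0.5. For 94 (63.1%) the negative r with the VAMP gene was larger in size than the positive r with LOC_Os01g11054. The mean of the other members, with each centred on its RIL mean, had r = 0.80 with LOC_Os01g11054 and r = -0.83 with the VAMP gene, and the seeds themselves had r = -0.59 with each other. With TOC75 the members had a median r of -0.12. The first principal component of the eligible probe sets, which took up 12.2% of their variance over the RILs, had an absolute r of 0.90 with the module mean and 0.61 with LOC_Os01g11054. All these correlations are over the same 210 arrays that chose the members.

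Of the 150 members, 13 carried a gene symbol and 55 an annotated description, 49 had no gene identifier and 29 had neither an identifier nor a locus in the tables used. Besides the seed, 51 probe sets of 48 genes had a symbol or a described function. These are grouped below by what their products do, a grouping made after their names had been seen. Many of the products are known to work in chloroplasts, which has no test here because descriptions were at hand for only some of the probe sets.

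Among enzymes of sugar phosphates and photorespiration, FBPase, the fructose bisphosphatase that releases phosphate on the way to sugar regeneration, was present with both its probe sets (r = 0.73 and 0.70). The glyceraldehyde-3-phosphate dehydrogenase LOC_Os03g03720 had r = 0.70. GLO5, a glycolate oxidase of photorespiration, had r = 0.64, and the aminomethyltransferase LOC_Os04g53230 (of the enzyme family that splits glycine in mitochondria) had r = 0.63. Their transcripts were abundant and narrow in range. LOC_Os03g03720 ran from 13.39 through a median of 13.91 to 14.16 over the RILs, and LOC_Os04g53230 from 13.23 through 13.86 to 14.07.

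Members of photosynthetic electron transport and its upkeep were LFNR1, the leaf ferredoxin-NADP reductase that makes NADPH (r = 0.65), LOC_Os01g66000, described as subunit N of an NADH dehydrogenase (r = 0.63), LOC_Os04g42800, described as a photosystem II repair protein (r = 0.66), LOC_Os02g39740, described as a translation factor for the photosystem I protein psaB (r = 0.66), and FTSH2, a protease whose Arabidopsis counterpart clears damaged photosystem II proteins (r = 0.65). LFNR1 ran from 12.33 through a median of 13.01 to 13.34 over the RILs, while FTSH2 had a median of 12.66 and a highest value of 13.20. The group thus holds assembly, repair and electron transfer proteins.

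Another group makes pigments, quinones, aromatic compounds and vitamins. PDS, the phytoene desaturase early in the carotenoid path, had r = 0.68 and ran from 11.16 through a median of 11.89 to 12.62. The lycopene beta cyclase LOC_Os02g09750, which closes the rings of carotenes, had r = 0.64 and a RIL median of 8.37. E37, an inner envelope protein of chloroplasts, had r = 0.64 and the low SD of 0.08 over the RILs. SNAT1, a serotonin N-acetyltransferase of melatonin synthesis, had r = 0.69, and the shikimate kinase LOC_Os01g01302 had r = 0.65. PDX12 had the widest range of the 6, from 9.70 through 12.43 to 13.46.

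Of RNA and translation genes, the module held CL27 (also named RPL27, a ribosomal protein L27, r = 0.67), the tRNA methyltransferase LOC_Os05g43582 (r = 0.70), LOC_Os03g20100 with an S1 RNA-binding domain (r = 0.65), LOC_Os10g34310 of the PPR repeat proteins that bind organelle transcripts (r = 0.62) and RSH1 (Os-RelA1), named after the bacterial RelA enzymes that handle the alarmone ppGpp (r = 0.62). The transport group consisted of the ABC transporter ABCG42 (also named PDR12, r = 0.67), the MATE efflux protein LOC_Os03g37640 (r = 0.68), the oligopeptide transporter LOC_Os06g03560 (r = 0.67) and the mitochondrial carriers LOC_Os03g15690, for phosphate (r = 0.68), and LOC_Os06g40050 (r = 0.65).

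Signalling and regulatory members numbered 9. They included LOC_Os02g53140, described as COP1, the ubiquitin ligase that represses light responses in Arabidopsis (r = 0.63), the auxin receptor F-box protein LOC_Os03g08850 (r = 0.64), the receptor kinase BAK1-7 (r = 0.62), LOC_Os10g40740 with a helix-loop-helix domain (r = 0.66), the tyrosine phosphatase LOC_Os08g44320 (r = 0.71), the aarF domain kinase LOC_Os01g21610 (r = 0.67) and LOC_Os05g08480, described as a cytokinin-O-glucosyltransferase (r = 0.62). The last had 1 of the wide ranges among named members, from 7.50 through a median of 9.39 to 10.71 (SD 0.62). Redox enzymes and other proteins made up the remaining 16 probe sets. Beside LOC_Os07g11110 these were led by the amine oxidases LOC_Os04g47290 (r = 0.72) and LOC_Os03g62510 (r = 0.72 and 0.70 for its 2 probe sets) and included the methyltransferase LOC_Os04g40530 (r = 0.68), the SNARE-associated Golgi protein LOC_Os01g66170 (r = 0.65) and the peroxiredoxin LOC_Os06g09610 (r = 0.64), which removes peroxides.

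The parental arrays had no part in the choice of members, so the difference between Minghui 63 and Zhenshan 97 is a separate measurement of these genes. Members tended to lie lower in Minghui 63. The difference was negative for 88% of the 150 members (all but 18), against 46.9% of the eligible probe sets, and its median was -0.43 (quartiles -0.68 and -0.14), against 0.03 over the eligible ones. Limma called 10 members lower and 0 higher in Minghui 63 at an adjusted p under 0.05. The 10 are 6.67% of the module, beside a background of 2.46% lower over all 57258 probe sets and 3.89% over the eligible ones, and the backgrounds for higher were 2.86% and 4.91%. At an unadjusted p under 0.05, 62 members were lower and 0 higher in Minghui 63, where 12.4% of the eligible probe sets were lower. The 3 Minghui 63 arrays lay below all 3 Zhenshan 97 arrays for 65 members (43.3%) and above them for 0, where 13.9% and 18.9% of the eligible probe sets did so. The members were chosen to vary together and were read on the same arrays. These shares and counts are therefore not separate observations, and they have no test of their own.

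The 10 calls changed in number with the arrays used. Without Minghui 63 replicate 2 there were 8, and without Zhenshan 97 replicate 2 there were 9. The lower calls over all probe sets were 1212 and 1854 in those fits. Without Minghui 63 replicate 1, Zhenshan 97 replicate 1 or Zhenshan 97 replicate 3, 1 member was called in each case, without Minghui 63 replicate 3 there were 16, and over all probe sets the lower calls were 702, 901, 913 and 1116 in these 4 fits, against 1406 with all arrays. The median difference of the members stayed negative throughout, between -0.55 and -0.25. The -0.25 came without Minghui 63 replicate 2, the array on which the members were lowest. P-values measure the spread between arrays of 1 parent, which the labels call biological replicates without saying whether they came from separate plants.

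**Figure D2:**
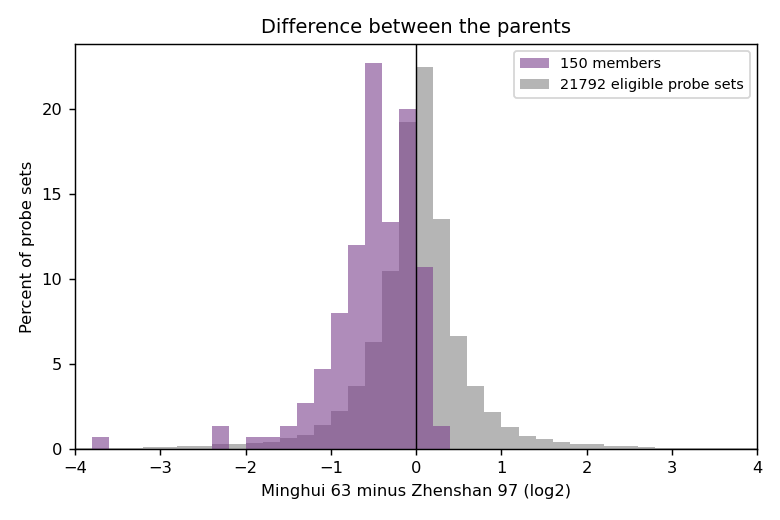
Minghui 63 minus Zhenshan 97 on the log2 scale for the 150 members (purple) and the 21792 eligible probe sets (grey), each as a percent of its own set; differences beyond 4 either way are not drawn. The members' peak is shifted to the left of 0, with a median of -0.43, and 18 members are above 0.

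The members of the other seeds, read on the same arrays, are given beside these. The same rule gives 150 probe sets for the VAMP gene. Of these, 29 (19.3%) were called higher and 0 lower in Minghui 63, with a median difference of 0.54. Limma called 2.86% of all probe sets and 4.91% of the eligible ones higher. Among the members of TOC75, 0 were called in either direction by limma, the median was -0.45 and 91.3% of the differences were negative. An unadjusted limma p under 0.05 was found for 28 of them, beside 5893 of the 21792 eligible probe sets. The VAMP gene had 11.60, 11.59 and 11.42 in Minghui 63, against 11.10, 11.10 and 10.89 in Zhenshan 97, a difference of 0.51 ± 0.13 (SE, limma adjusted p = 0.0733). LOC_Os01g11054 itself had a difference of -0.04, nearer to 0 than the median of its members.

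Of the 10 members called lower, LOC4347942 on chromosome 10, for which the tables gave no function, had the largest difference. It had 7.41, 6.79 and 8.70 in Minghui 63, against 11.91, 10.39 and 11.98 in Zhenshan 97, a difference of -3.79 ± 0.55 (SE, limma adjusted p = 0.00541). That is 13.9-fold more in Zhenshan 97. The RILs ran from 6.47 through a median of 8.65 to 11.28, so 0 of the 210 lines reached the Zhenshan 97 mean, and 33 were below the Minghui 63 mean. Its adjusted p stayed under 0.05 in each of the 10 other fits tried, with a highest value of 0.0343, and the other 9 calls were each lost in 3 or more of these.

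LOC_Os07g41660, an expressed protein, had 6.75, 5.92 and 7.69 in Minghui 63, against 8.96, 8.91 and 9.41 in Zhenshan 97 (-2.31 ± 0.40, limma adjusted p = 0.0134). Here 2 lines exceeded the Zhenshan 97 mean. LOC4347153, again with no function in the tables, had 8.32, 7.21 and 9.33 in Minghui 63, against 10.57, 10.09 and 10.91 in Zhenshan 97 (-2.24 ± 0.48, limma adjusted p = 0.0335), and its RILs spread from 7.52 through 9.84 to 11.49. These 3 and LOC_Os02g03720, LOC_Os05g05140 and LOC4327539 are outside the rule for named genes and are given because they complete the 10.

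Among called members with a described function, the methyltransferase LOC_Os08g31750 had 9.25, 8.67 and 9.93 in Minghui 63, against 10.61, 10.67 and 11.19 in Zhenshan 97 (-1.54 ± 0.31, limma adjusted p = 0.0267). The PPR protein LOC_Os10g34310 had 9.30, 8.49 and 9.47 in Minghui 63, against 10.26, 10.20 and 10.75 in Zhenshan 97 (-1.31 ± 0.28, limma adjusted p = 0.0323). The alpha/beta fold hydrolase LOC_Os07g38830 had 9.71, 9.18 and 10.03 in Minghui 63, against 10.53, 10.69 and 11.07 in Zhenshan 97 (-1.13 ± 0.24, limma adjusted p = 0.0359). In all 3 the parents did not overlap, and Minghui 63 replicate 2 was the lowest array. LOC_Os05g44210, annotated as a trehalose phosphate synthase, an enzyme whose product signals sugar status, had 7.29, 6.96 and 7.38 in Minghui 63, against 7.91, 8.13 and 8.09 in Zhenshan 97 (-0.83 ± 0.18, limma adjusted p = 0.0332). The remaining 3 had differences of -1.04 for LOC_Os02g03720, -0.98 for LOC_Os05g05140 and -0.94 for LOC4327539, with limma adjusted p-values of 0.0222, 0.0483 and 0.0440.

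**Figure D3:**
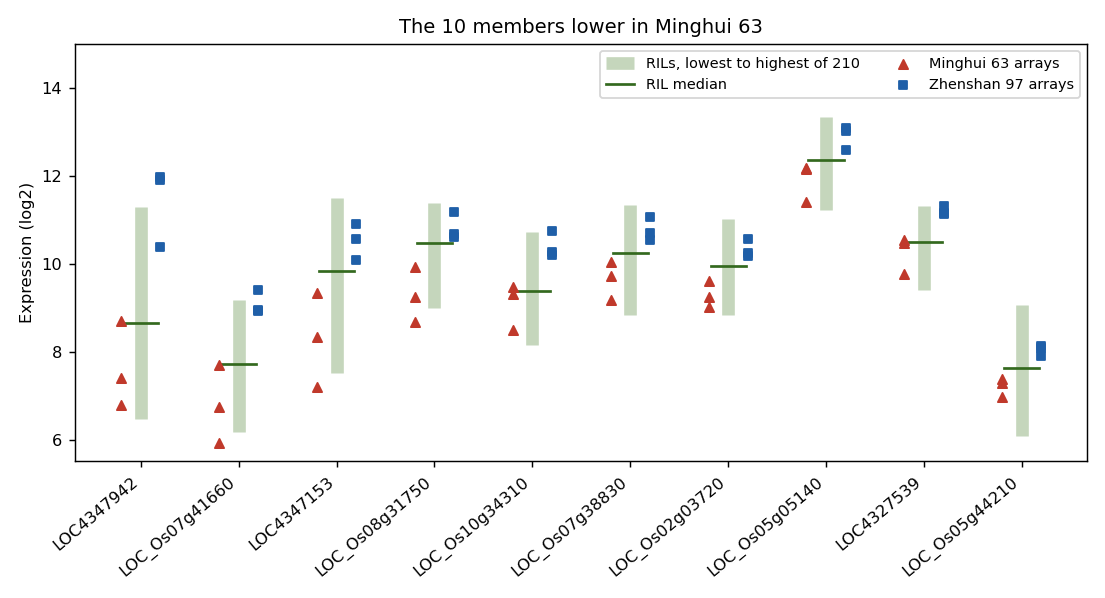
Log2 expression of the 10 members called lower in Minghui 63, ordered by the size of the difference, with the 3 Minghui 63 arrays (triangles) left of the 3 Zhenshan 97 arrays (squares), the RIL range (bar) and the RIL median (line). For LOC4347942 the highest RIL, at 11.28, is below 2 of the 3 Zhenshan 97 arrays.

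The median parental difference ran from -0.64 to -0.08 among the groups of named members, which were not tested against each other. Over the eligible probe sets, 5893 of 21792 had an unadjusted limma p under 0.05, in either direction. Sugar phosphate and photorespiratory enzymes had a median difference of -0.10 (5 probe sets, 0 called by limma, 0 with an unadjusted p under 0.05) and electron transport members one of -0.08 (5 probe sets, 0 called, 2 with an unadjusted p under 0.05). FBPase had 13.18, 12.96 and 13.23 in Minghui 63, against 12.99, 13.16 and 13.06 in Zhenshan 97, which overlap. LFNR1 had 12.92, 12.73 and 12.95 in Minghui 63, against 12.81, 12.64 and 12.93 in Zhenshan 97, likewise overlapping. LOC_Os01g11054, with which both were correlated over the RILs, overlapped between the parents too. The glyceraldehyde-3-phosphate dehydrogenase LOC_Os03g03720 had 13.81, 13.07 and 13.79 in Minghui 63, against 13.86, 14.01 and 14.01 in Zhenshan 97, which do not overlap and are set apart mainly by Minghui 63 replicate 2 (limma adjusted p = 0.335).

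The 6 pigment, aromatic and vitamin genes had a median of -0.64. Of the 6, 4 did not overlap between the parents, 0 were called by limma and 4 had an unadjusted p under 0.05. All Minghui 63 arrays lay below all Zhenshan 97 arrays for 43.3% of the module and 13.9% of the eligible probe sets. PDS had 11.60, 11.19 and 11.72 in Minghui 63, against 12.11, 11.75 and 12.51 in Zhenshan 97 (limma adjusted p = 0.174). PDX12 had 12.19, 11.21 and 12.38 in Minghui 63, against 12.71, 12.99 and 13.07 in Zhenshan 97 (limma adjusted p = 0.0941). RNA and translation genes had a median of -0.53 (1 of 5 called) and transport genes one of -0.47 (0 of 5 called, 3 with an unadjusted p under 0.05). Signalling genes had a median of -0.59 (1 of 9 called, all 9 negative) and redox enzymes and other proteins one of -0.44 (2 of 16 probe sets called). Of the whole module, 6.67% were called lower and 88% were negative, against 3.89% and 46.9% of the eligible probe sets. The MATE protein LOC_Os03g37640 had 11.66, 11.36 and 11.82 in Minghui 63, against 12.26, 12.28 and 12.15 in Zhenshan 97, at the edge of the threshold (limma adjusted p = 0.0503). The amine oxidase LOC_Os04g47290 had 8.95, 8.67 and 9.53 in Minghui 63, against 9.98, 9.82 and 10.45 in Zhenshan 97 (limma adjusted p = 0.0616).

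For 71.8% of the other members the RIL mean fell between the parental means, for 26 members it was above both and for 16 below both. The module mean was -0.15, -0.63 and 0.04 in the Minghui 63 arrays, against 0.14, 0.23 and 0.40 in the Zhenshan 97 arrays, where 0 is the RIL mean. The parents did not overlap in it. The RILs ran from -0.76 through 0.01 to 0.62 (SD 0.26), and 190 of the 210 lay inside the parental range, 5 below and 15 above it. The lower end of that range was 1 array, Minghui 63 replicate 2 at -0.63. The next lowest parental array was at -0.15, while the lower quartile of the RILs was -0.17, so the count below the range rests on that array.

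**Figure D4:**
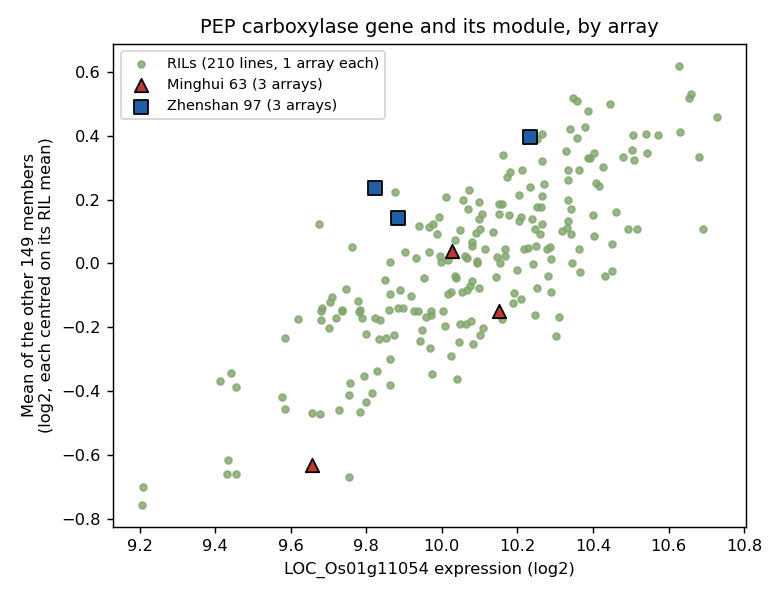
Mean of the other members (log2, each centred on its RIL mean) against the log2 expression of LOC_Os01g11054, for the 210 RILs (dots), the 3 Minghui 63 arrays (triangles) and the 3 Zhenshan 97 arrays (squares). The RILs form a sloping cloud with r = 0.80, which was part of the choice of members, and the Minghui 63 arrays lie below the Zhenshan 97 arrays on the vertical axis while the parents overlap on the horizontal one.

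The replicate arrays of each parent allow the co-variation itself to be looked at outside the RILs. After each parent's mean was taken off, the other members had a median r of 0.69 with LOC_Os01g11054 over the 6 parental arrays (quartiles 0.53 and 0.81), and all but 6 were positive (96%), against a median of -0.05 and 47.2% positive over the eligible probe sets. The members of the VAMP gene had a median of -0.58. This is a description over 6 arrays and rests largely on 1 of them. Minghui 63 replicate 2 was 0.29 below its parent's mean for LOC_Os01g11054 and 0.39 below it for the module mean, and 6 of the other members were above their Minghui 63 mean there, which 78.5% and 96% were in replicates 1 and 3. Without it the median r was 0.35 and 69.1% were positive, against -0.10 and 44.9% over the eligible probe sets. The members of TOC75 had a median r of -0.06 with LOC_Os01g11054 over the 6 arrays, but of 0.77, with 98.7% positive, over the 5 without that array. On those 5 arrays LOC_Os01g11054 thus varied more closely with the members of TOC75 than with its own. In Zhenshan 97, replicate 3 was the highest array for the seed, 0.25 above the parental mean, and 78.5% of the members were above their mean on it, which 17.4% and 49% were on replicates 1 and 2.

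Members were more abundant than the eligible probe sets in general. Their RIL medians ran from 6.52 to 14.02, with a median of 10.62 against 8.17, and 35 of the 150 (23.3%) exceeded 12, against 4.22% of the eligible ones. The SD over the RILs had a median of 0.28, against 0.23, and a range of 0.07 to 1.04. The widest was that of LOC4347942, the member with the largest parental difference. Probe sets whose names end in x_at or s_at can match more than 1 transcript. Those ending in x_at made up 22% of the members, against 15.7% of the eligible probe sets. Those ending in s_at made up 5.33%, against 7.34%. Without members ending in x_at or s_at, 9 were called lower in Minghui 63, and with 1 probe set for each gene 10 were. The first count leaves out the 22% and 5.33% of members given above, and the second the repeated probe sets of 5 genes. Neither count is therefore out of 150, and shares of the eligible probe sets chosen in the same way are not given.

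The member genes were spread over all 12 chromosomes. Of the 120 members with a known chromosome, 15 (12.5%) were on chromosome 1, which holds LOC_Os01g11054, against 16.2% of the eligible probe sets, and the highest count was 19 (15.8%, against 14.3%) on chromosome 3. Of 96 genes placed in the gene table, 0 pairs were direct neighbours and 5 pairs lay within 10 genes of each other. A gene was a member through 2 or more probe sets in 5 cases. Member genes had 27 other eligible probe sets outside the module, leaving out those of the seed. Their r with LOC_Os01g11054 ran from -0.11 to 0.61 with a median of 0.44, and 10 exceeded 0.5. GLO5 shows the spread within 1 gene: the probe set that is a member gave 0.64, and the others gave 0.61 and -0.01.

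Other named genes of the same leaf pathways were read beside the members. The module holds 0.688% of the eligible probe sets and 0.606% of those with a gene symbol, so most genes of any list fall outside it, and the lists were small. In light harvesting, photosystems and electron transport, 1 of 12 eligible probe sets was a member (LFNR1), and the median r was -0.14. The chlorophyll-binding protein gene CAB2R had r of -0.15 and -0.14 and PSB28, a photosystem II assembly protein, had 0.56. Of 11 eligible probe sets for Rubisco, its activase and fructose bisphosphatases, the 2 of FBPase were members and the rest had r of 0.42 or lower. Rubisco small subunit probe sets (OsrbcS) gave 0.14 to 0.23, and CFBP1, the other bisphosphatase gene measured, gave 0.42 and 0.36. In photorespiration GLO5 was the 1 member of 11 eligible probe sets, beside catalase CAT-A at -0.43 to -0.37 over its 3 probe sets. In carotenoid synthesis PDS was the 1 member of 6, and the median r was 0.03. The phytoene synthases were PSY2 at 0.54, PSY3 at -0.33 and PSY1 at -0.22 to 0.06 over its 3 probe sets. None of 13 eligible probe sets for chlorophyll synthesis and breakdown was a member, and the highest r was 0.50, for NYC1, a chlorophyll b reductase of leaf senescence.

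**Figure D5:**
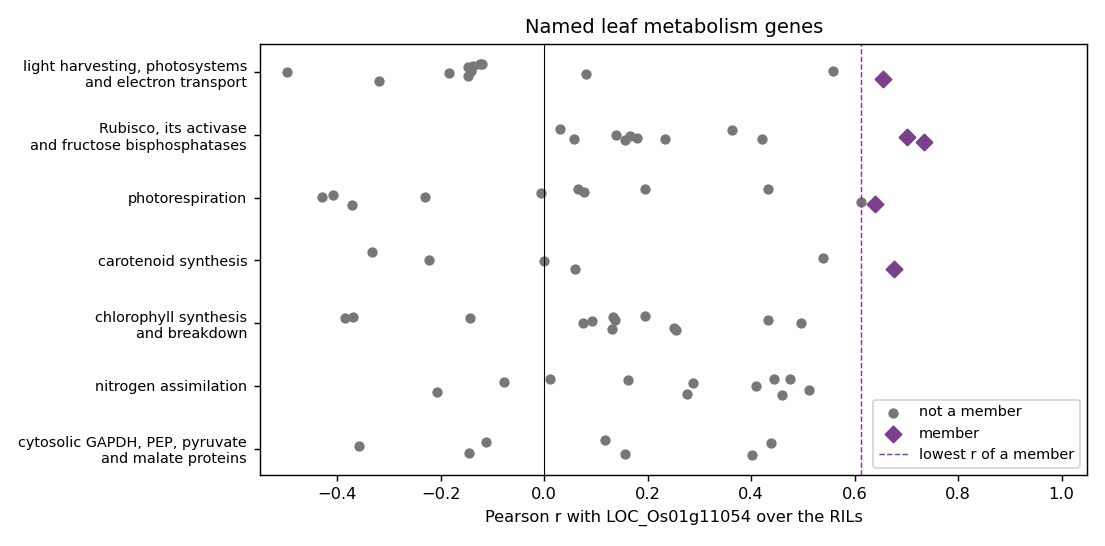
Pearson r with LOC_Os01g11054 over the 210 RILs for eligible probe sets of named leaf metabolism genes, 1 row for each pathway, with members as purple diamonds. The dashed line marks the lowest r of a member, 0.61, and in each row most points lie to the left of it.

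Nitrogen assimilation, the pathway to which PEP carboxylase supplies carbon skeletons, had 0 members among 11 eligible probe sets found by symbol, which at an overall share of 0.606% says little about the pathway. The highest r were 0.51 for Fd-GOGAT, the ferredoxin glutamate synthase, 0.47 for GLN2, the chloroplast glutamine synthetase, and 0.44 for NIA1, a nitrate reductase, and the median was 0.29. The other eligible probe set of GLN2 gave 0.01. The nitrite reductase LOC_Os05g42350 came nearest, with r of 0.56, 0.51 and 0.59 on its 3 probe sets. It was lower in Minghui 63 on each of these. Its probe set with the highest r had 9.80, 9.31 and 10.05 in Minghui 63, against 10.91, 10.77 and 11.13 in Zhenshan 97 (limma adjusted p = 0.0138). Among proteins that handle PEP, pyruvate and malate, OsPPT3, a PEP/phosphate translocator, had r = 0.44 and was lower in Minghui 63 by 0.90 (limma adjusted p = 0.0121), PPDKB, the pyruvate phosphate dikinase, had 0.40, and the NADP-malic enzyme NADP-ME2 had -0.36.

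Descriptions came from part of the study's eQTLs and were at hand for 55 of the 150 members and 1602 of the 21792 eligible probe sets. Lists matched by description therefore do not cover whole gene classes. Members made up 3.43% of the eligible probe sets that had a description. In the lists matched by words of the description they were 4 of 35 oxidoreductases (11.4%), 1 of 18 ubiquitin ligases (5.56%, LOC_Os03g08850), 2 of 80 protein kinases (2.5%, BAK1-7 and LOC_Os01g21610), 1 of 68 transporters (1.47%, LOC_Os06g03560) and 0 of 92 transcription factors. Of the 4 oxidoreductase probe sets, 2 are of the same gene, LOC_Os03g62510. These lists take only descriptions that hold the searched words, so COP1, LOC_Os10g40740 and the other 4 transport members named above are not counted in them. Of 18 eligible ribosomal protein probe sets 1 was a member (5.56%), CL27, and the median r of the 18 was -0.41. At the opposite end from the module, the named genes with the lowest r were LOC_Os06g40650, a copine (-0.64), LOC_Os05g48750, an enzyme that activates the cell wall sugar Kdo (-0.63), the F-box protein gene LOC_Os01g08830 (-0.62), the proton pump gene VATP-P1 (-0.62) and OC-III, a cysteine proteinase inhibitor (-0.61). LOC_Os05g48750 was higher in Minghui 63, with 10.53, 10.73 and 10.35 against 9.57, 9.43 and 9.61 in Zhenshan 97 (limma adjusted p = 0.00894).

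Signs of RNA quality and of line order were set against the module. The differences between 3' and 5' probe sets of 7 rice control transcripts had r between -0.27 and 0.21 with the module mean and between -0.45 and 0.00 with LOC_Os01g11054, the -0.45 being for actin. Consecutive lines, taken 10 at a time by line number, shared 13.5% of the variance of the module mean and 23.7% of that of LOC_Os01g11054, against a median of 18.4% over the eligible probe sets. With the means of these blocks removed 38 of the 150 members were lost, while the median r of the other members with LOC_Os01g11054 was 0.69. With the control differences removed 45 were lost and that median was 0.58. With the first 5 principal components removed, which took up 28.7% of the variance, 49 were kept and the median was 0.35. The part of these in the co-variation was not tested.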

How the data were processed

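Flag leaf RNA of 210 RILs (1 array each), Minghui 63 and Zhenshan 97 (3 arrays each) was analysed. The deposited values are log2 expression values per probe set, made by the authors with RMA and the affy package per the submitters' processing notes, with versions not given in the sources used here. The values were not normalized again, and 123 control probe sets were left out. The number of arrays limits the precision. The members and lists were chosen with earlier results of these data known, and the lists matched by symbol and the roles were added after the values were seen.

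Correlations used Python 3.11.15 and numpy 2.4.6. For the parents, limma 3.58.1 (lmFit and eBayes with a trend, R 4.3.3) was fitted to 57258 probe sets and p-values were adjusted by Benjamini-Hochberg, with calls at 0.05. Both routines were tested on simulated data. Symbols came from the probe set table and were brought up to date with RefSeq's genes for ASM3414082v1. Loci and descriptions came from the study's eQTL table, of which the first part, mostly chromosome 1 eQTLs, was used, so coverage of gene classes is partial. Sequence differences between a parent and a probe are not told apart from expression differences, since probe sequences were not used here.

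Named genes followed a rule: the seed and its family, the 12 named members with the highest r, called members with a name, up to 3 members of each list, the most abundant and most variable named members, those at the limit of the rule and the 5 named genes with the lowest r. Other members were named to fill the role groups, after their values were seen. Alternatives were no variance trend, eligible probe sets only, quantile normalization, a replicate block, each parental array left out, Spearman correlation, other minimum levels, no condition on the other seeds, and removal of components, line blocks or control differences. Leaving out cross-matching probe sets, 1 probe set for each gene, and the alternatives for the within-parent correlations and for the share of members lower in Minghui 63 were chosen after seeing the data.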

Additional observations from a re-analysis of the deposited data

How the results depend on the processing

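Members called lower in Minghui 63 numbered 10 (2.46% of all probe sets were), and 11 without the variance trend (2.52%; 9 of the 10 kept), 14 among eligible probe sets only (4.53%; all 10 kept), 8 after quantile normalization (2.41%; 8 kept) and 1 to 16 with each parental array left out in turn. Calls of members higher in Minghui 63 stayed at 0 in each of these fits. The median difference was -0.41 after quantile normalization and -0.55 to -0.25 with 1 array left out. The difference of LOC_Os01g11054 changed sign, ranging from -0.14 to 0.11 with an array left out. The same happened for the second probe set of LOC_Os07g11110 (-0.152 to 0.0622), the second of FBPase (-0.10 to 0.10), LOC_Os04g53230 (-0.242 to 0.0773) and the unnamed probe set at the limit of the module (-0.141 to 0.295). The cause was not tested.

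With the replicate number as a block, 16 members were called lower, of which 7 were among the 10, and the lower calls over all probe sets fell to 1107 (1.93%), against 1406 without it. Same-numbered arrays of the parents did not deviate together (r of -0.20, -0.26 and -0.07 for replicates 1 to 3), so the replicate block pairs arrays that share a number only.

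Of the 150 members, 20 were lost with Spearman correlation, 1 and 2 with a minimum median of 5 and 7, 0 without the condition on the other seeds, 18 after quantile normalization of the RILs, 38 with line blocks removed and 45 with control differences removed. With the first 5 components removed 49 were kept.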
